A study of Mus musculus with 6 samples.

Results

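The genes described here are 38 genes of the interferon response and of innate sensing, the machinery by which a cell detects viral nucleic acid and answers it. A gene was measured where the array annotation paired a feature with its symbol alone, and of several such features the brightest over the 6 arrays stood for the gene. This gave 37 measured genes among the 30702 genes of the table; Ifi44 was not analysed here. They fall into 2 receptor subunits, 4 sensors and adaptors, 6 transcription factors, ISG15 and its protease, 19 antiviral effectors and 4 genes of antigen processing. They bear on the question whether retroviral transduction drew an antiviral response in early mesoderm.

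All 6 samples came from embryoid bodies, aggregates of differentiating mouse embryonic stem cells, of the line iRunx. Day 4 bodies were broken up, and flow cytometry collected the cells that carried Flk1 (the VEGF receptor encoded by Kdr) but not PDGFRα, among which endothelial and blood precursors are found. In the HOXB4 group a retrovirus expressed tdTomato/HOXB4, and control cells lacked that expression; each group has 3 arrays, 1 per independent experiment. Not given in the sources used here are the species of HOXB4, the time from transduction to sorting, any empty vector in the controls and any induction of a Runx gene in this line. If the controls carried no vector, an effect of HOXB4 and an effect of transduction cannot be told apart. If the controls were exposed to a vector too, a response common to both groups would not show in this contrast. Differences between the groups therefore cannot decide whether transduction drew a response. No feature names Hoxb4 alone, so the transgene was not used to check the labels.

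Interferons are secreted proteins that warn neighbouring cells of infection. Pattern receptors in endosomes and in the cytosol bind foreign RNA or DNA and, through adaptors such as MAVS and kinases such as TBK1, activate the factors IRF3 and IRF7, which turn on interferon genes. Secreted type I interferon binds IFNAR1 and IFNAR2, and a complex that holds STAT2 and IRF9 then binds the interferon stimulated response element (ISRE) in front of antiviral genes. Pluripotent stem cells are known for a weak interferon response compared with differentiated cells.

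The element is visible in the promoters of many of these genes, and 5 are shown because the values given further on turn on them. Each window runs from 250 bases before the gene's first base to 50 bases from it onward, 5′ to 3′ on the gene's strand, taken from RefSeq on build GRCm38.p6. Bst2, chr8:71537423-71537722 on the minus strand, and Rsad2, chr12:26456403-26456702 on the minus strand, are the genes whose groups did not overlap. Isg15, chr4:156200769-156201068 on the minus strand, stands for the classical antiviral genes near background, and B2m, chr2:122147437-122147736 on the plus strand, and Ifitm3, chr7:141010695-141010994 on the minus strand, for those with bright features. Capitals mark matches to the ISRE core, read as GAAA, any 2 bases and GAAA, on either strand.
Bst2: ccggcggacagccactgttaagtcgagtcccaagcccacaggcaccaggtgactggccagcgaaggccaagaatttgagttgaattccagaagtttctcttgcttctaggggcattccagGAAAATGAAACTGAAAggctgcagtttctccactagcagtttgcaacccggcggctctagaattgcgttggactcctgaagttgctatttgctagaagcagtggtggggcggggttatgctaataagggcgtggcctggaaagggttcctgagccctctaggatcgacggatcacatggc
Rsad2: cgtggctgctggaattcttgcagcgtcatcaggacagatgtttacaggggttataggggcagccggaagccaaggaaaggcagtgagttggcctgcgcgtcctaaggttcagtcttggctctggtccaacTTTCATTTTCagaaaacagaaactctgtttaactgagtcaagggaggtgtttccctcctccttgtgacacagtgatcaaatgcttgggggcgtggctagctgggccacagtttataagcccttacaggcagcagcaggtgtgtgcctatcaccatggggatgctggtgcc
Isg15: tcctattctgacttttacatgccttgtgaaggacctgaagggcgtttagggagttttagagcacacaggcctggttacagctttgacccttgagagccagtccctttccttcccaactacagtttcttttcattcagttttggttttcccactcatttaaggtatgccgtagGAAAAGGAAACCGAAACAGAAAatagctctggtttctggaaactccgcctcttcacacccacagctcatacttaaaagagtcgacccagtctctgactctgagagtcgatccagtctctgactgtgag
B2m: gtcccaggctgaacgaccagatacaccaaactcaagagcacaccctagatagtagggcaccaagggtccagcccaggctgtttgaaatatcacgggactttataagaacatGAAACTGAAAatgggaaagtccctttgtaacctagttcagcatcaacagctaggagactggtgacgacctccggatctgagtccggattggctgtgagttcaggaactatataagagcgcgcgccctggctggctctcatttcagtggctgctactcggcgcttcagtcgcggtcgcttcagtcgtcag
Ifitm3: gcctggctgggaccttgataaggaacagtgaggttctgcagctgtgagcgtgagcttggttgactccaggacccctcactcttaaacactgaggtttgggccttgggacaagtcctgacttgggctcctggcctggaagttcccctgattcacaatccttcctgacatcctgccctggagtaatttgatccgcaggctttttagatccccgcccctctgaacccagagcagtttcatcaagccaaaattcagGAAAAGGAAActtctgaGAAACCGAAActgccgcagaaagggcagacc
With the first base of the gene as position 0, the first match began at position -130 in Bst2 and at -78 in Isg15, where 3 matches share bases in 1 run. It began at -120 in Rsad2 on the other strand, at -139 in B2m and at 2, inside the transcribed part, in Ifitm3.

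Of the 38 genes, 33 were in the promoter table, and 14 of these (42.4%) held an ISRE core, against 3.99% of the 27025 genes of that table and 3.44% of its 32851 promoters. The 14 were B2m, Bst2, Eif2ak2, Ifih1, Ifit1, Ifit3, Ifitm2, Ifitm3, Irf2, Isg15, Oas1a, Oas3, Rsad2 and Stat2. The core of another known interferon element, the gamma-activated sequence (GAS), read as TTC, any 3 bases and GAA on either strand, was in 12 of the 33 (36.4%), against 9.55% of all genes and 8.3% of all promoters. Of 21 ISRE matches in these genes, 2 shared bases with a GAS match. A match describes the letters in the window and is not a site shown to be used. Genes with and without the ISRE core covered overlapping differences. HOXB4 minus control had a median of 0.04 on the log2 scale over the 14 genes with it (range -0.46 to 0.60) and of -0.04 over 18 measured genes without it (range -0.78 to 0.23).

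The deposited values are log2 summaries, comparable between arrays for 1 gene but not between genes. Each array carries 23 background features with no mouse target. A gene was called above background on an array when its value passed the 95th percentile of these features there, a limit of 5.05 to 5.68. That limit was lowest in control 3 (5.07) and HOXB4 2 (5.05). Over all genes 41.8% passed it in all 6 arrays. The median gene lay at 5.10 to 5.22, and precision is limited by having 3 arrays per group. Of the sorted identity, Kdr lay at 13.68 to 14.33, and all 12 endothelial and blood precursor markers passed the limit in all 6 arrays. Markers of other fractions did so too: 4 of 9 PDGFRA mesoderm and cardiac markers, with Hand1 at 12.82 to 13.79 in controls and 8.61 to 12.83 in HOXB4 samples, and 5 of 8 pluripotent cell markers. No feature names Pdgfra alone. Of 12 macrophage markers, 9 were under the limit in all 6 arrays, Ptprc (CD45), Csf1r and Adgre1 among them, while Cd68 passed it in all 6, and the mean over the list was 4.44 to 4.46 in controls and 4.39 to 4.50 in HOXB4 samples.

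The receptor, the adaptor and most transcription factors gave signal in every array, 7 of the 19 antiviral effectors did so too, and no difference between the groups passed the test. Over all 30702 genes, 12834 passed the background limit in all 6 arrays, 14446 in none and 3422 in some. Of the 37 genes, 18 passed it in all 6 arrays, 13 in none and 6 in some. The 37 were thus under it throughout less often than genes at large. Those above it in all arrays included both receptor subunits, the adaptor Mavs and the factors Irf1, Irf2, Irf3, Irf9 and Stat2. Under the limit in every array were Ifit1, Ifit3, Isg15, Mx1, Mx2, Oas2, Oas3, Oasl1, Oasl2, Rsad2, Irf7, Psmb9 and the sensor Tlr3. Most of these are genes classically turned on by interferon. Other interferon-induced genes passed the limit in all 6 arrays, Usp18, Bst2, Ifitm3 and Eif2ak2 among them. For HOXB4 against control, limma (two-sided, Benjamini-Hochberg adjusted over all genes) called 0 of the 37, where it called 0% of all genes, with a smallest adjusted p of 0.605. At an unadjusted p under 0.05 it counted 1 of the 37, Bst2, where 8.19% of all genes passed. A linear model without moderation also called 0 and counted 1 at an unadjusted p, Rsad2, where 6.43% of all genes passed. Both counts of 1 are under their background.

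**Figure D1:**
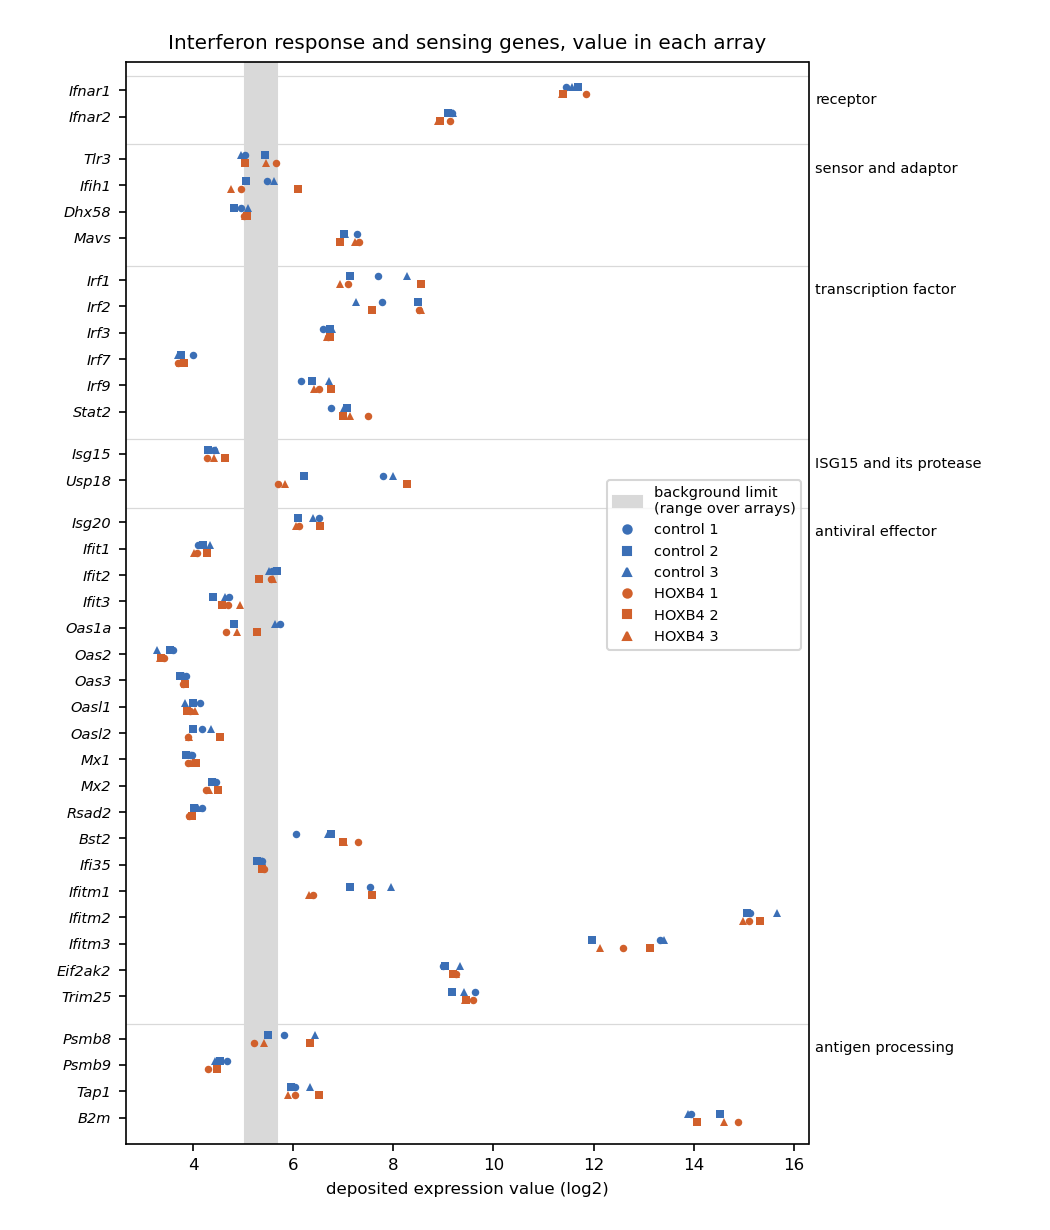
Deposited log2 value (x axis) of each of the 37 genes (y axis, grouped by role) in the 3 control arrays (blue) and 3 HOXB4 arrays (orange), with marker shape for the replicate. The grey band is the range of the background limit over arrays, 5.05 to 5.68. Of the 19 antiviral effectors 9 lie left of the band in both groups, while Ifnar1, Ifitm2, Ifitm3 and B2m lie far to its right.

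The differences were spread around 0. HOXB4 minus control was above 0 for 17 genes and below 0 for 20, so 45.9% were above 0, against 40% of all genes. Their median was -0.035 on the log2 scale, against -0.039 over all genes. Of the 37 differences, 31 lay between the 5th and 95th percentile of all genes, -0.36 to 0.36. Bst2, B2m and Irf2 lay above that range, and Ifitm1, Oas1a and Usp18 below it. The 95% confidence interval (limma, not adjusted for the number of genes) stayed within -1 and 1, a 2-fold change either way, for 29 of the 37 (78.4%), against 93.6% of all genes, so these genes were bounded less tightly than genes at large. Its upper bound was under 1 for 34 genes (91.9%, against 95.8% of all genes), the exceptions being Bst2, Irf2 and Usp18, so for those 34 a 2-fold higher mean lay outside the interval on the deposited scale. Array summaries can compress changes near background, so for the dim genes that scale may understate a change, which was not tested. Expression was measured in RNA from whole sorted fractions, in which fewer cells of a type and less RNA per cell cannot be told apart.

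**Figure D2:**
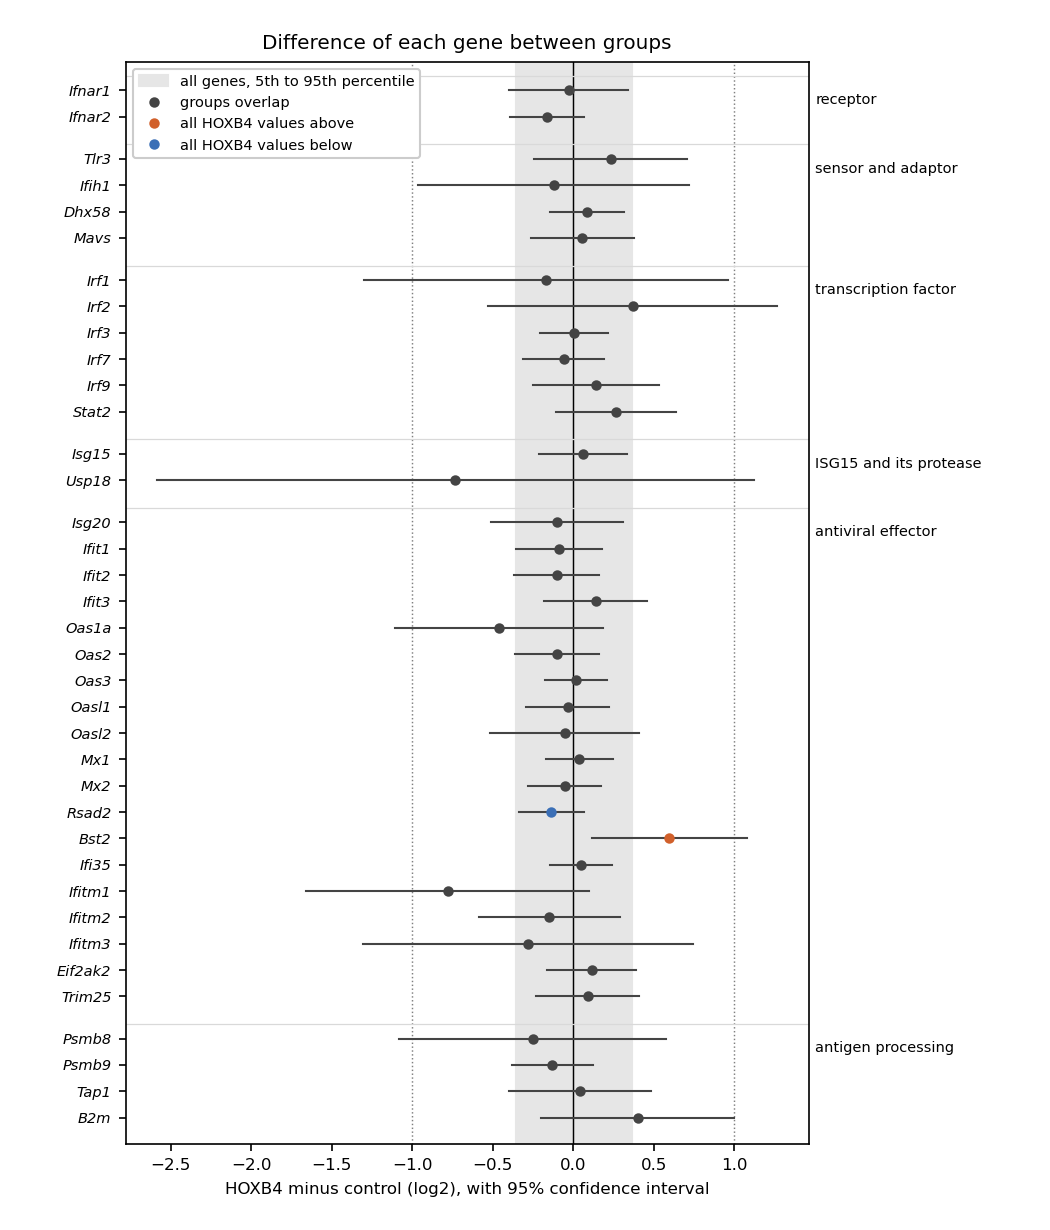
HOXB4 minus control on the log2 scale (x axis) for each of the 37 genes (y axis), with the 95% confidence interval from limma as a line (n = 3 arrays per group). The grey band is the 5th to 95th percentile of all 30702 genes and dotted lines mark -1 and 1. The Bst2 interval, 0.11 to 1.08, is the one that does not reach 0, and the Usp18 interval, -2.59 to 1.12, is the widest.

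Both subunits of the type I interferon receptor gave bright values in every sample. Ifnar1 gave 11.44, 11.70 and 11.57 in control arrays 1 to 3, and HOXB4 arrays 1 to 3 gave 11.86, 11.39 and 11.37. HOXB4 1 was the highest array and the groups overlapped, with a difference of -0.03 (SE 0.16; limma adjusted p = 0.963). Ifnar2 read 9.17, 9.09 and 9.19 in controls and 9.12, 8.94 and 8.90 in HOXB4 samples. HOXB4 2 and 3 lay under all controls but HOXB4 1 did not, and the difference was -0.16 (SE 0.10; limma adjusted p = 0.657).

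Among the sensors, Mavs, the adaptor on mitochondria that relays the signal of the RNA helicases, was above the limit in all 6 arrays, at 6.94 to 7.32. It differed by 0.06 (SE 0.13). Tlr3, the endosomal receptor for double-stranded RNA, was under the limit in all 6 arrays, at 4.97 to 5.67. Ifih1, which encodes the cytosolic RNA helicase MDA5, read 5.47, 5.07 and 5.63 in controls and 4.95, 6.09 and 4.75 in HOXB4 samples. It passed the limit in 2 arrays, control 3 and HOXB4 2, the arrays where the limit was lowest. HOXB4 samples held both its highest and its lowest value. Dhx58, which encodes LGP2, a helicase that modulates the other RNA helicases, passed the limit in the same 2 arrays and lay at 4.83 to 5.09. The difference was 0.23 (SE 0.20) for Tlr3, -0.12 (SE 0.35) for Ifih1 and 0.09 (SE 0.10) for Dhx58, with limma adjusted p between 0.744 and 0.931.

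The transcription factors divided into steady and variable genes. Irf3, the factor that sensors activate, was steady, at 6.59, 6.73 and 6.78 in controls and 6.70, 6.73 and 6.68 in HOXB4 samples, a difference of 0.003 (SE 0.09). Irf7, the amplifying factor that interferon itself turns on, was under the limit in every array, at 3.99, 3.77 and 3.70 in controls and 3.70, 3.82 and 3.75 in HOXB4 samples. Both groups overlapped for these genes. Irf9, the DNA-binding subunit of the STAT complex, read 6.17, 6.38 and 6.72 in controls and 6.52, 6.75 and 6.42 in HOXB4 samples. Stat2, its partner, read 6.75, 7.07 and 7.01 in controls and 7.50, 7.0 and 7.13 in HOXB4 samples. HOXB4 1 was the highest array for Stat2, with a difference of 0.27 (SE 0.16; limma adjusted p = 0.655), and the difference of Irf9 was 0.14 (SE 0.16; limma adjusted p = 0.807).

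Irf1 and Irf2, an activator and a repressor that recognise the same elements, were the variable factors. Irf1 read 7.69, 7.14 and 8.27 in controls and 7.10, 8.56 and 6.93 in HOXB4 samples. Irf2 read 7.78, 8.49 and 7.26 in controls and 8.51, 7.56 and 8.55 in HOXB4 samples. In each group the array that was highest for Irf1 was lowest for Irf2, namely control 3 and HOXB4 2. The difference was -0.17 (SE 0.48; limma adjusted p = 0.928) for Irf1 and 0.37 (SE 0.38; limma adjusted p = 0.788) for Irf2.

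Isg15, the ubiquitin-like protein that interferon-treated cells attach to other proteins, was under the limit in all 6 arrays at 4.29 to 4.63, with a difference of 0.06 (SE 0.12). Usp18, the protease that removes ISG15 and damps signalling from the receptor, had the widest spread of the 37 and is described in full for that reason, seen in its values. It read 7.80, 6.21 and 8.003 in controls and 5.70, 8.27 and 5.85 in HOXB4 samples. Control 2 lay with HOXB4 1 and 3, and HOXB4 2 with controls 1 and 3, so the groups overlapped over nearly their whole range. The difference was -0.73 (SE 0.78, 95% interval -2.59 to 1.12; limma adjusted p = 0.794). Without HOXB4 2 it was -1.57 and without HOXB4 1 it was -0.28.

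Bst2 was the gene of the 37 whose 3 HOXB4 values lay above all 3 control values. It encodes tetherin, a membrane protein that holds budding enveloped viruses, retroviruses among them, at the cell surface. It read 6.05, 6.76 and 6.69 in controls and 7.29, 6.99 and 7.01 in HOXB4 samples. Control 1 lay well under the other controls, and control 2, the highest of them, lay under HOXB4 2, the lowest HOXB4 array. The control mean was 6.50 ± 0.39 (SD, n = 3) and the HOXB4 mean 7.10 ± 0.16 (SD, n = 3), a difference of 0.60 (SE 0.20), or 1.51-fold with a 95% interval of 1.08 to 2.11. The limma p was 0.0226 unadjusted and 0.605 adjusted, so the difference did not pass the test. Without control 1 the difference was 0.37, and over the other arrays left out it reached 0.72. The same complete separation upward was seen for 3.24% of all genes, so 1 of 37 is near that background.

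Rsad2, which encodes viperin, an enzyme that makes a chain-terminating nucleotide, was the gene whose 3 HOXB4 values lay under all 3 control values. It read 4.17, 4.02 and 4.09 in controls and 3.92, 3.99 and 3.96 in HOXB4 samples. All 6 values were under the background limit and within a narrow range, so no fold is given. The difference was -0.14 (SE 0.09; limma adjusted p = 0.670). Complete separation downward was seen for 10.2% of all genes, so 1 of 37 is under that background.

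**Figure D3:**
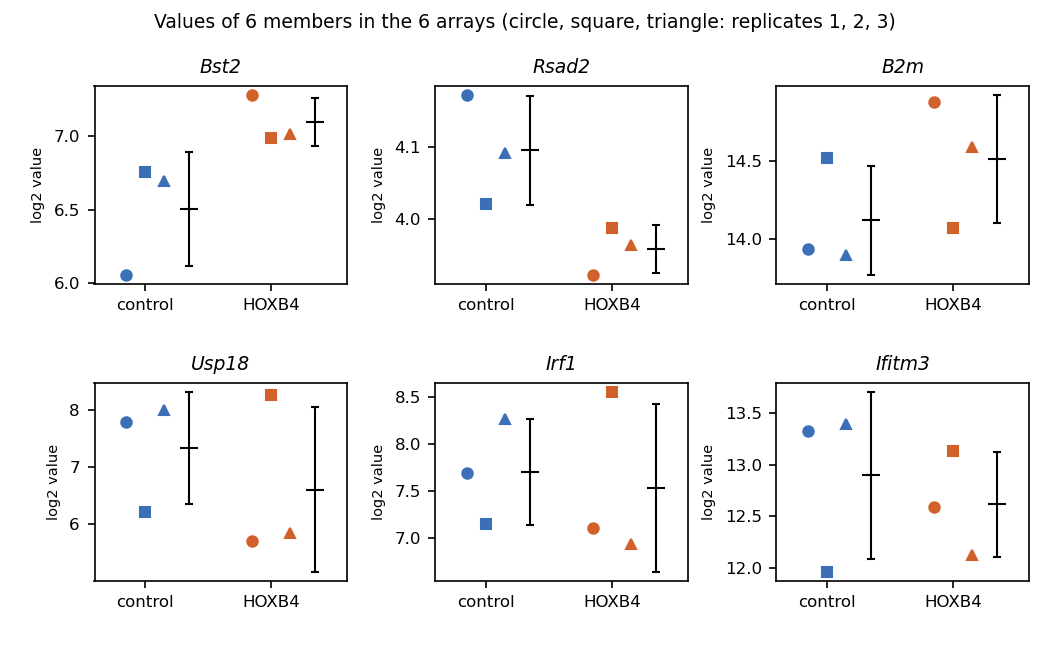
Deposited log2 value (y axis, a separate scale in each panel) of Bst2, Rsad2, B2m, Usp18, Irf1 and Ifitm3 in the 3 control and 3 HOXB4 arrays, with the mean and SD of each group (n = 3) as bars beside the points. Bst2 and Rsad2 show no overlap, the latter within 3.92 to 4.17, and for Usp18, Irf1 and Ifitm3 control 2 is the lowest control.

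The IFITM genes, which encode small membrane proteins that hinder the fusion of viruses with the cell, were above the limit in every array. Ifitm2 read 15.12, 15.07 and 15.67 in controls and 15.10, 15.32 and 14.99 in HOXB4 samples, with the groups overlapping and a difference of -0.15 (SE 0.18; limma adjusted p = 0.815). Ifitm3 read 13.33, 11.96 and 13.40 in controls and 12.59, 13.13 and 12.12 in HOXB4 samples. Control 2 was the lowest array of all, and the difference was -0.28 (SE 0.43; limma adjusted p = 0.855). Without control 2 it was -0.75. Ifitm1 read 7.54, 7.13 and 7.95 in controls and 6.40, 7.57 and 6.31 in HOXB4 samples. HOXB4 1 and 3 lay under all controls and HOXB4 2 lay among them, giving a difference of -0.78 (SE 0.37, 95% interval -1.66 to 0.10; limma adjusted p = 0.619). Without HOXB4 2 it was -1.18, with a limma adjusted p of 0.142.

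The enzymes that act on viral RNA gave the following values. Eif2ak2, which encodes PKR, a kinase that stops translation on binding double-stranded RNA, read 8.99, 9.03 and 9.34 in controls and 9.25, 9.19 and 9.25 in HOXB4 samples, a difference of 0.11 (SE 0.12). Control 3 was the highest array, so the groups overlapped. Oas1a, one of the enzymes that make oligoadenylate on binding double-stranded RNA, read 5.74, 4.83 and 5.63 in controls and 4.67, 5.28 and 4.88 in HOXB4 samples. It passed the limit in control 1, control 3 and HOXB4 2, the 3 highest arrays, and the difference was -0.46 (SE 0.27; limma adjusted p = 0.655). Oas2 and Oas3 of the same family, and Oasl1 and Oasl2, relatives of it, were under the limit in all arrays with differences between -0.10 and 0.02. Isg20, an exonuclease, was above the limit in all arrays at 6.05 to 6.54 and differed by -0.10 (SE 0.17).

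Of the IFIT genes, whose proteins bind foreign RNA, Ifit1 (4.01 to 4.34) and Ifit3 (4.41 to 4.94) were under the limit in all arrays. Ifit2 (5.31 to 5.68) passed it in 3, HOXB4 2 among them with the lowest Ifit2 value, 5.31, over its low limit. The differences of Ifit1, Ifit3 and Ifit2 were -0.09 (SE 0.11), 0.14 (SE 0.14) and -0.10 (SE 0.11). Mx1 (3.87 to 4.05) and Mx2 (4.27 to 4.50), dynamin-like GTPases that trap viral components, differed by 0.04 (SE 0.09) and -0.05 (SE 0.10). The interferon-induced gene Ifi35 lay at 5.27 to 5.41, passed only the 2 lowest limits, those of control 3 and HOXB4 2, and differed by 0.05 (SE 0.08). Trim25, a ubiquitin ligase that supports signalling by the RNA helicase RIG-I, read 9.64, 9.17 and 9.41 in controls and 9.60, 9.46 and 9.43 in HOXB4 samples. Controls held its highest and lowest value, and the difference was 0.09 (SE 0.13; limma adjusted p = 0.85). Taking the 13 genes under the limit in every array, differences ran from -0.14 to 0.23, and 12 of them had an upper 95% bound under 0.5 on the log2 scale, Tlr3 reaching 0.71.

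The genes of antigen processing differed in level of signal and in spread. B2m, the light chain of MHC class I, read 13.94, 14.52 and 13.89 in controls and 14.88, 14.07 and 14.59 in HOXB4 samples. HOXB4 1 and 3 lay above all controls and HOXB4 2 among them, with a difference of 0.40 (SE 0.25, 95% interval -0.20 to 1.00; limma adjusted p = 0.675). Psmb8 and Psmb9 encode catalytic subunits of the immunoproteasome, and Tap1 encodes a subunit of the peptide transporter. Psmb8 ranged from 5.23 to 6.44 with the highest values in control 3 and HOXB4 2 and differed by -0.25 (SE 0.35). Psmb9 read 4.68, 4.54 and 4.43 in controls and 4.29, 4.48 and 4.48 in HOXB4 samples. Its groups overlapped under the limit, with a difference of -0.13 (SE 0.11). Tap1 was above the limit at 5.91 to 6.52 and differed by 0.04 (SE 0.19). The limma adjusted p of these 3 genes lay between 0.727 and 0.956.

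Within each group the arrays were far from alike for several of these genes. HOXB4 2 held the highest value for 10 of the 37 genes (27%), against 11.8% of all genes, and control 3 for 9 (24.3%), against 12.5%. Control 1 held it for 8 (21.6%), against 32.8% of all genes, and control 2 for 1 (2.7%), against 15.1%. The lowest value was in HOXB4 3 for 9 genes (24.3%), against 16.3% of all genes, in HOXB4 1 for 8 (21.6%), against 27.4%, and in HOXB4 2 for 2 (5.41%), against 14%. The median SD over the 6 arrays was 0.175 over the 37 genes, against 0.164 over all genes, and 0.243 against 0.199 among those above the limit in all arrays. The largest range of a gene was 2.57 (Usp18).

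Markers of the sorted population varied over the same arrays. The mean of 12 endothelial and blood precursor markers was 9.60, 10.63 and 9.63 in the control arrays and 11.23, 9.41 and 10.53 in the HOXB4 arrays, so control 2 and HOXB4 1 and 3 were the higher arrays. These were the 3 lowest arrays for Usp18, Irf1, Ifih1, Psmb8 and Ifitm3, among others, and the 3 highest for Irf2, B2m, Stat2 and Tlr3. Other genes did not follow this split. Ifnar1 was highest in HOXB4 1 and lowest in HOXB4 3, and Trim25 highest in control 1 and lowest in control 2. The share of all genes with this split was not counted. The mean of 8 pluripotent cell markers was 7.02, 6.56 and 7.42 in controls and 6.91, 7.84 and 7.75 in HOXB4 samples, and that of 9 PDGFRA mesoderm and cardiac markers was 8.01, 7.58 and 7.57 in controls and 6.25, 7.37 and 6.19 in HOXB4 samples. HOXB4 minus control was below 0 for all 9 PDGFRA mesoderm and cardiac markers, 4 without overlap, where 10.2% of all genes separated downward. It was above 0 for all 8 pluripotent and 11 of the 12 endothelial and blood precursor markers, against 40% of all genes. Those 11 ran from 0.06 (SE 0.19) for Kdr to 1.17 (SE 1.14) for Pecam1. The exception, Etv2, read 12.31, 11.75 and 12.33 in controls and 9.58, 12.06 and 10.16 in HOXB4 samples. Its difference of -1.53 (SE 0.60, limma adjusted p = 0.605) was the largest in size of that list. Limma called 0 of these markers. The part of these markers in the values of the interferon genes was not tested.

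**Figure D4:**
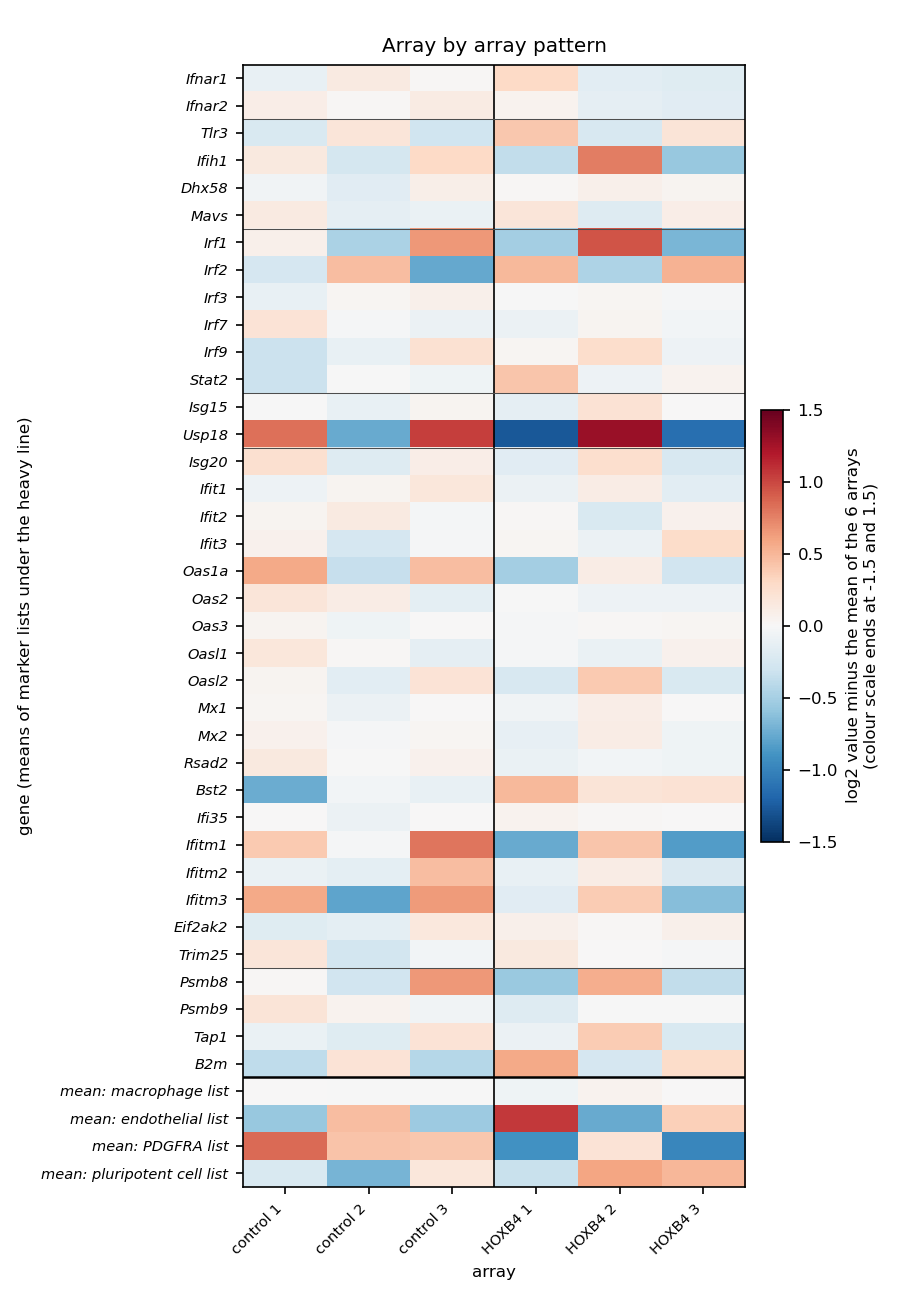
Colour gives the log2 value minus the mean of the 6 arrays for each of the 37 genes (rows, grouped by role) in each array (columns), and for the means of 4 marker lists under the heavy line; the scale ends at -1.5 and 1.5. Usp18, Irf1 and Ifitm3 are blue where the endothelial list is red (control 2, HOXB4 1 and HOXB4 3), and the macrophage list is nearly colourless.

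The wider pathway was read from 4 lists of further genes, 88 of them measured, of which limma called 0 and counted 4 at an unadjusted p under 0.05, fewer than the 8.19% of all genes that passed. None of the 18 other interferon pathway genes passed the unadjusted threshold, and their median difference was -0.01. Ifnb1, the first interferon made on sensing, read 4.64, 4.32 and 4.41 in controls and 4.25, 4.02 and 4.28 in HOXB4 samples, all under the background limit, with HOXB4 values lower by 0.27 (SE 0.13; limma adjusted p = 0.612). Stat3, a factor downstream of many cytokine receptors, differed by 0.55 (SE 0.29) and Tyk2, a kinase bound to IFNAR1, by 0.42 (SE 0.23). Both had overlapping groups and limma adjusted p of 0.639 and 0.643.

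Of 18 other sensing genes 1 passed at an unadjusted p, and the list's median difference was 0.09. Tbk1, the kinase that activates IRF3, read 9.42, 10.01 and 10.29 in controls and 10.81, 10.33 and 10.62 in HOXB4 samples. Every HOXB4 value lay above every control, though by little for HOXB4 2, and the difference was 0.68 (SE 0.24). The limma p was 0.0247 unadjusted and 0.605 adjusted, so it did not pass the test. Ifi204, a gene of the DNA-sensing family of IFI16, was under the limit and differed by -0.27 (SE 0.13), and Nfkbia, which encodes an inhibitor of NF-κB, differed by 0.81 (SE 0.51) with 12.01 in HOXB4 1 against 9.67 to 10.55 in the other arrays. Sting1, the adaptor of cytosolic DNA sensing, is named because its difference was the largest of these lists, seen in the values: it read 7.06, 9.74 and 6.24 in controls and 10.49, 6.34 and 10.06 in HOXB4 samples. Its high arrays were control 2 and HOXB4 1 and 3, and the difference was 1.28 (SE 1.30; limma adjusted p = 0.787).

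None of the 33 other interferon stimulated genes passed the unadjusted threshold, with a median difference of -0.02. The smallest p belonged to Rtp4 (-0.27, SE 0.12), Cmpk2 (0.21, SE 0.10) and Pml (0.64, SE 0.31), with limma adjusted p of 0.610 to 0.623. Rtp4 is an interferon-induced chaperone, CMPK2 a mitochondrial nucleotide kinase and PML the scaffold of nuclear bodies. In this list control 2 held the lowest value for 15 of the 33 genes (45.5%), against 13.3% of all genes, and HOXB4 2 held the highest for 15 (45.5%), against 11.8% of all genes. Pml, whose highest array was HOXB4 3, was not among them.

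Retroviral restriction and silencing genes include some that stem cells use to shut down proviruses. The 19 genes of this list were all above the limit in all 6 arrays. Their median difference was -0.12, and limma counted 3 at an unadjusted p under 0.05, all lower in HOXB4 samples, where 5.95% of all genes were lower at that threshold. Daxx, a histone chaperone, read 9.20, 9.24 and 9.13 in controls and 8.71, 9.08 and 8.82 in HOXB4 samples, lower by 0.32 (SE 0.12; limma adjusted p = 0.605). Yy1, a factor that binds retroviral repeats, read 12.69, 12.60 and 12.24 in controls and 12.15, 12.21 and 12.18 in HOXB4 samples, lower by 0.33 (SE 0.13). Pphln1, a subunit of the silencing complex HUSH, read 12.72, 11.98 and 12.002 in controls and 11.37, 11.97 and 11.59 in HOXB4 samples, lower by 0.59 (SE 0.24). For these 3 genes and for Samhd1, an enzyme that depletes nucleotides, every HOXB4 value lay under every control value, 4 of 19 where 10.2% of all genes did so. Samhd1 is named from its values. All 4 gaps were small, the smallest for Pphln1, with HOXB4 2 at 11.969 and control 2 at 11.976. None of the 19 genes passed the adjusted test.

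**Figure D5:**
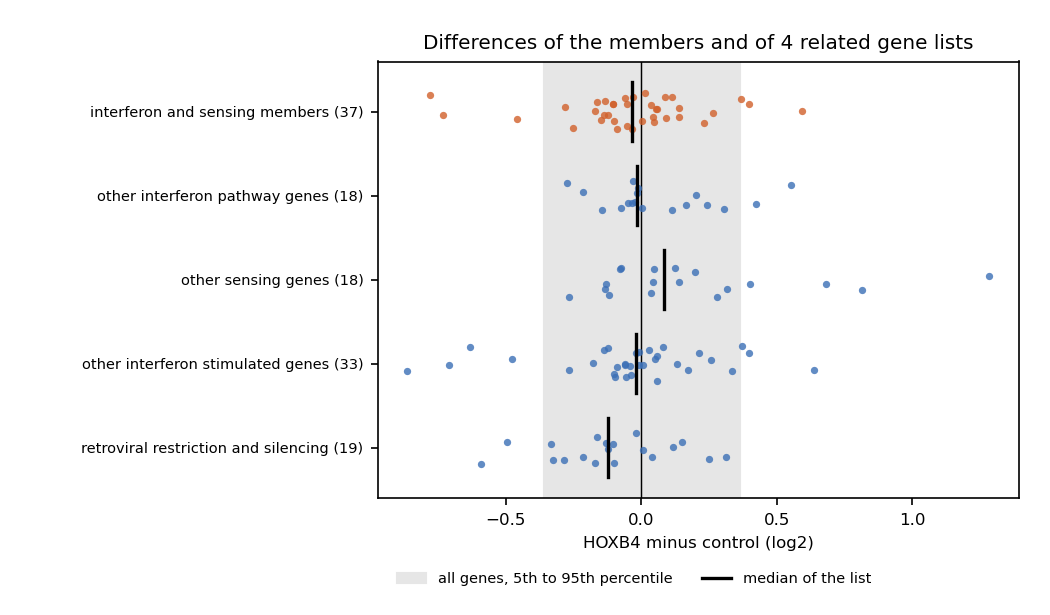
HOXB4 minus control on the log2 scale (x axis) for the 37 genes (orange) and for 4 lists of related genes (blue), 1 point per gene with vertical scatter for legibility only. Black bars are list medians, from -0.12 for retroviral restriction and silencing to 0.09 for other sensing genes, and the grey band is the 5th to 95th percentile of all genes, which holds 31 of the 37 orange points.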

How the data were processed

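Each of 6 RNA samples, 3 control and 3 HOXB4, went on its own array. Per the labels' protocols, Trizol and column purification gave the RNA, of which 100 ng entered the Affymetrix WT PLUS labelling. The authors deposited log2 expression values. The values were made with RMA and Affymetrix Expression Console, per the submitters' processing notes. RMA forces all arrays to one distribution, so a shift shared by most genes is partly removed. The versions and settings were not given in the sources used here.

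Symbols were updated through RefSeq (GRCm38.p6). Of 65956 features other than controls, 31258 then named 1 gene, 1492 several and 33206 none. Where a gene had several single-gene features, as Irf1 alone did among the 37, the brightest was taken, which left 30702 genes. Signal was judged against 23 background features. The contrast of HOXB4 with control was fitted on all genes with lmFit and eBayes of limma 3.58.1 (R 4.3.3), without a replicate block. Tests were two-sided, p-values were adjusted over all genes by Benjamini-Hochberg with a threshold of 0.05, and SE is the moderated one. The steps were tested on simulated data. Promoter motifs were counted on both strands. Python 3.11.15 made the tables and plots, with pandas 2.3.3, matplotlib 3.10.9 and numpy 2.4.6.

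The genes and lists were chosen with earlier results of these data known. Every gene is named. Values in each array are given for genes whose groups did not overlap, the 6 further genes with the smallest p, the 6 with the highest mean, the receptor subunits and the transcription factors. Of each related list the 3 genes with the smallest p are named. Alternatives were a replicate block, other priors and weights, 2 scalings, other rules for features, a filter on dim genes, other background limits and each array left out in turn.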

Additional observations from a re-analysis of the deposited data

How the results depend on the processing

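None of the 37 genes and none of the 88 related genes was called by limma, or by the unmoderated linear model, under any alternative. Over all genes 0 to 46 were called with 1 array left out; the 46 (3 higher, 43 lower) were without HOXB4 2, where the smallest adjusted p among the 37 was 0.142 (Ifitm1). Genes of the 37 without overlap numbered 1 to 5 higher and 1 to 9 lower with 1 array left out, which by itself makes separation easier: without HOXB4 2, 10.5% and 21.4% of all genes separated. With each array centred on its median, 2 were lower without overlap (Psmb9 and Rsad2), as 11.1% of all genes were. With the background limit at the median background feature, chosen after seeing the data, all 37 were above background. That limit was 3.06 to 3.15, far under the median gene at 5.10 to 5.22, so passing it does not set these genes apart. The share of all genes above it is not given here. The median of all genes was -0.039 as deposited, -0.027 centred and -0.012 after cyclic loess. The sign of the difference turned under at least 1 alternative for 15 genes, in 30 values in all: Ifih1, Ifitm2, Ifnar1, Irf1, Irf3, Irf7, Isg15, Mavs, Mx1, Oas3, Oasl1, Oasl2, Psmb8, Tap1 and Trim25. Bst2 had an unadjusted p under 0.05 except with the replicate block, without moderation and without HOXB4 1.

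Same-numbered samples did not deviate together (correlations of -0.40, -0.59 and -0.35). With 3 arrays per group and marker levels that varied over the arrays, this cannot decide whether the numbers pair the samples. With the replicate block 0 genes were called, and 1294 passed at an unadjusted p under 0.05 against 2513 without it. Signal near background limits what can be said of 13 of the 37 genes.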
